A study of Mus musculus with 40 samples.

Results

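Ribosome footprints and mRNA of 10 inflammatory genes were followed through ER stress in mouse embryonic fibroblasts. The genes are 3 inhibitors of the transcription factor NF-kB (Nfkbia, Nfkbiz and Tnfaip3), 4 chemokines (Ccl2, Ccl7, Cxcl1 and Cxcl12), the cytokines Csf1 and Il6, and Ptgs2, an enzyme of prostaglandin synthesis. They were taken by symbol from the deposited table of 22417 genes, and each symbol matched 1 row. All samples came from fibroblasts lacking GADD34 (GADD34-/-), either untreated or given thapsigargin, which empties the calcium store of the ER, at 1 µM for 0.5, 1, 2 or 4 h. Digitonin opened the plasma membrane and released the cytosol, and dodecyl maltoside then extracted what was left, called the ER fraction here. Each fraction was split into ribosome footprints (180 µM cycloheximide and micrococcal nuclease) and mRNA (after depletion of ribosomal RNA), with 2 samples in each of the 20 groups. Wild-type cells were not among the samples, so every change below is a change within GADD34-/- cells and no comparison is of genotypes. Nothing in the labels says that the 2 samples of a group are separate cultures. The p-values below therefore speak of the variation within these pairs alone, which may be technical.

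NF-kB is held in the cytoplasm by IkB proteins. A signal that activates the IkB kinase, or a block of translation that lets short-lived IkB run down, frees NF-kB to enter the nucleus. Its early targets include its own inhibitors, which close a feedback loop, and chemokines and cytokines that recruit and feed leukocytes. During ER stress the kinase PERK phosphorylates eIF2alpha, which lowers translation initiation. GADD34 (gene Ppp1r15a) normally brings a phosphatase to eIF2alpha and restores initiation, so cells without it lack this return path. Secreted proteins are made on ribosomes bound to the ER, whereas Nfkbia, Nfkbiz and Tnfaip3 encode proteins of the cytoplasm and nucleus that carry no ER signal sequence.

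The NF-kB motif stands close to the start site of several of these genes, and the stretch around it is shown because the genes are grouped by this factor. The motif searched was GGGNNTTTCC, on both strands, in the 250 bases before each RefSeq start site (GRCm38.p6). RefSeq promoters were found for 7 of the 10 genes (8 promoters, since Tnfaip3 has a pair), and Ccl2, Ccl7 and Nfkbiz are not shown. A match was present for 5 of these 7 genes, or 5 of their 8 promoters, against 464 of 32851 promoters in the table, or 1.41%. The genes were grouped by this factor beforehand, so this contrast is no independent result. No match was found for Cxcl12, for Ptgs2 or for the other Tnfaip3 start. A match describes the letters only and is no evidence of binding. The stretches below are 120 bases long and read along the gene's own strand, with the motif in capitals. Where a capital run begins with GGAAA, the motif lies on the opposite strand. For Nfkbia (chr12:55492648-55492767, minus strand) the last 120 bases before the start are shown, with the motif beginning 29 bases before it. For Tnfaip3 (chr10:19015411-19015530, minus strand) they are also the last 120 bases, with the motif beginning 12 bases before the start. For Cxcl1 (chr5:90891110-90891229, plus strand) bases 135 to 16 before the start are shown, with matches beginning 89 and 71 bases before it. For Csf1 (chr3:107760559-107760678, minus strand) bases 209 to 90 are shown, with the motif beginning 154 bases before the start. For Il6 (chr5:30012994-30013113, plus strand) the last 120 bases are shown, with the motif beginning 44 bases before the start.
Nfkbia: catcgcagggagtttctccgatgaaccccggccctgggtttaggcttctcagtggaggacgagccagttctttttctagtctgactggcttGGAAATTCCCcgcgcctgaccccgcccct
Tnfaip3: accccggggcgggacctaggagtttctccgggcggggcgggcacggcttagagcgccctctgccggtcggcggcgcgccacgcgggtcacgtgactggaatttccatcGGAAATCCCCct
Cxcl1: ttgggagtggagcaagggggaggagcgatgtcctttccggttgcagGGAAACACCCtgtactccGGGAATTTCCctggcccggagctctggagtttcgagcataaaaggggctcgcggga
Csf1: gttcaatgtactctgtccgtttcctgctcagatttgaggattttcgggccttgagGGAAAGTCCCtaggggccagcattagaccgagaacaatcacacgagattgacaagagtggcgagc
Il6: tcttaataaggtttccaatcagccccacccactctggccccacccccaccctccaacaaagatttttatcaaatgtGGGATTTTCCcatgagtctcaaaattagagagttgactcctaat

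Values are RPKM (reads scaled to transcript length and to the reads of the library), so they can be compared between genes. The values further hold a weight for each fraction at each time, which sets the 2 fractions of a time to different totals (ER 32.8% and cytosol 67.2% at 0.5 h in replicate 1). In the same replicate it was 46.7% and 53.3% untreated and 45.9% and 54.1% at 4 h. This weight is therefore part of every ER share, every difference between fractions and every change with time below. Whole reads could be recovered from the steps of the RPKM values. Libraries held 56857 to 9604852 reads for ER footprints, 122242 to 5388188 for cytosol footprints, 1502 to 162032 for ER mRNA and 48215 to 315658 for cytosol mRNA. The column of ER footprints at 0.5 h, replicate 2, was empty, which left 39 libraries. A gene with no value in a library is left blank in the table, and blanks are not read as 0 here. The gene of the missing protein, Ppp1r15a, was listed in 2 of 39 libraries, at 2.89 and 19.3 RPKM, and the position of its deletion relative to these reads was not analysed. Among fibroblast markers 8 of 9 were listed in footprints, with a summed level of 3490 to 19833 RPKM, and Thy1 was never listed. Among leukocyte markers 4 of 12 in the table were listed, their sum ran from 0 to 56.8 RPKM, and Ptprc, Emr1 and Lyz2 were never listed. Epithelial markers summed to at most 0.599 RPKM and endothelial markers to at most 1.61 RPKM. The level of a gene is relative to all other genes of its library, so a rise of a gene and a fall of the rest cannot be told apart. The values hold no measure of cell number or of RNA per cell.

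Footprints gave 166 of 190 possible values for the 10 genes, and mRNA gave 87 of 200. Nfkbia, Ccl2, Cxcl12, Csf1 and Ptgs2 had a value in all 19 footprint libraries. Ccl7 had one in 17, Tnfaip3 in 16, Nfkbiz in 14, Cxcl1 in 13 and Il6 in 11. The gaps lay in replicate 1, where 76 of 100 footprint values were present, against 90 of 90 in replicate 2. A median of 54.5 reads stood behind a footprint value, and 21 of the 166 rested on fewer than 10 reads. The plot of recovered reads shows this spread for each gene.

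**Figure D1:**
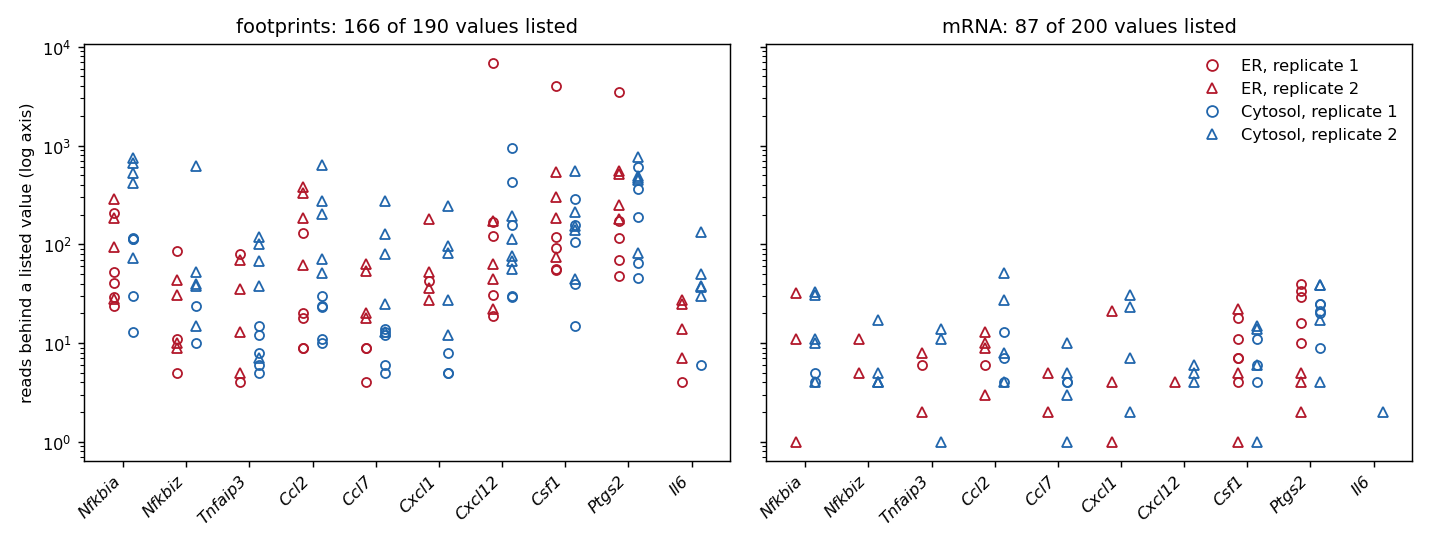
Recovered reads behind each listed value of the 10 genes (log axis), for footprints and mRNA. Footprint values rested on 4 to 6858 reads and mRNA values on 1 to 51 reads.

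The replicates differed in level, with most pairs higher in replicate 2. Nfkbia was higher in replicate 2 than in replicate 1 in 9 of 9 pairs of footprint libraries, by 1.14 to 2.87 on the log2 scale. Ccl2, Csf1 and Ptgs2 were higher in replicate 2 in 8 of 9 pairs each and Ccl7 in 7 of 8. Tnfaip3 was higher in 6 of 7 pairs, Nfkbiz in 4 of 5, Cxcl1 in 3 of 4 and Il6 in 2 of 2. Cxcl12 went the other way and was lower in replicate 2 in 9 of 9 pairs. For Ccl2, Ccl7, Cxcl1, Csf1, Ptgs2 and Tnfaip3 the exception was the same pair, untreated cytosol.

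**Figure D2:**
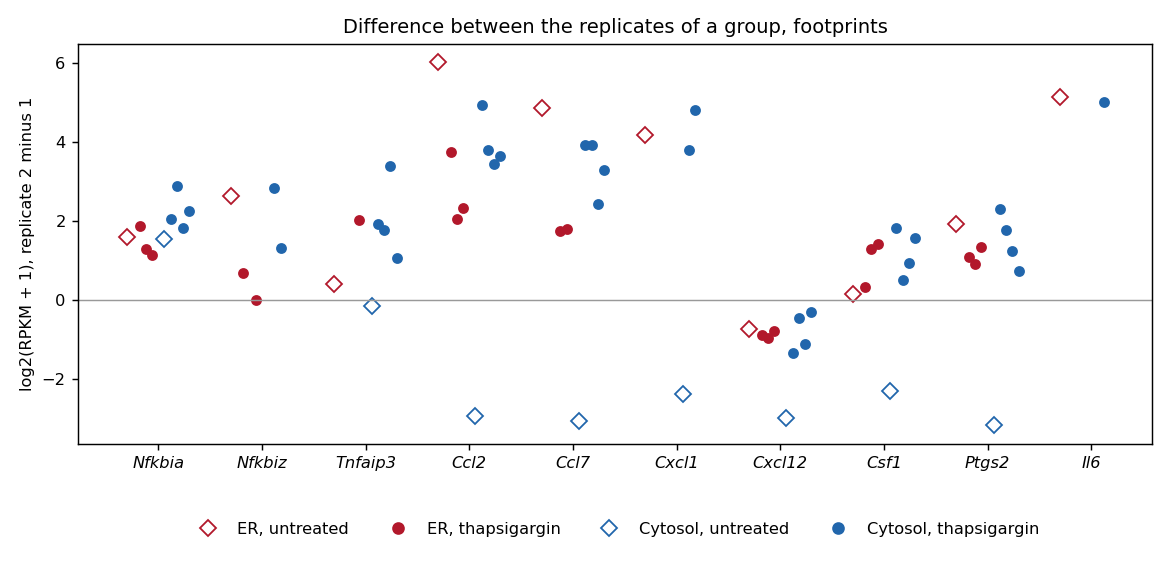
Difference between replicate 2 and replicate 1 (log2 RPKM + 1) for each gene in each pair of footprint libraries. Nfkbia lies above 0 in 9 of 9 pairs and Cxcl12 below 0 in 9 of 9, while Ccl2, Ccl7, Cxcl1, Csf1 and Ptgs2 fall below 0 in untreated cytosol.

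Both of the deepest libraries were untreated: ER footprints replicate 1, with 9604852 reads, and cytosol footprints replicate 2, with 5388188. They were also where Ccl2, Ccl7 and Cxcl1 were low. Ccl2 stood at 13.9 and 15.9 RPKM in these libraries, against 967 and 130 RPKM in the untreated ER and cytosol libraries of the other number. For some results that rest on one of these libraries, the value without it is also given below. Where none is given, the result may still depend on that library. Whether depth had a part in these differences was not tested.

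**Figure D3:**
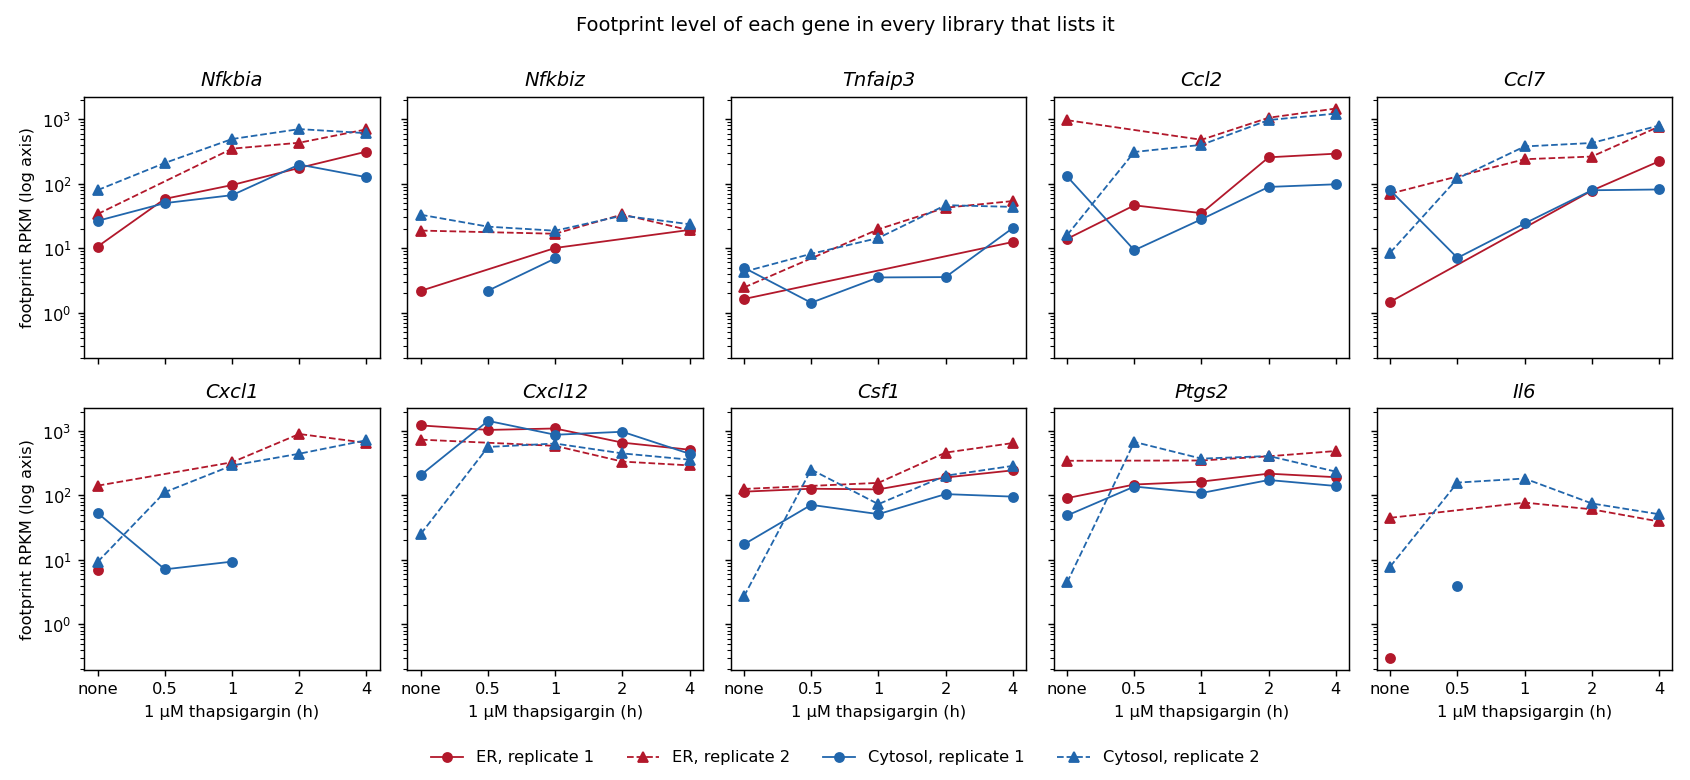
Footprint level (RPKM, log axis) of the 10 genes by time in thapsigargin, with one line for each fraction and replicate; a missing point is a blank. Nfkbia climbs with time in all 4 series up to 2 h, and Cxcl12 falls in the ER fraction while it is lowest in untreated cytosol.

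Nfkbia encodes IkBalpha, the main cytoplasmic inhibitor of NF-kB and one of its fastest targets, and its ER footprints rose in both replicates. In the ER fraction replicate 1 had 10.6 RPKM untreated, then 58.2, 95.3, 176 and 315 RPKM at 0.5, 1, 2 and 4 h. Replicate 2 had 33.9 RPKM untreated, then 350, 432 and 697 RPKM at 1, 2 and 4 h. Every treated ER library was above both untreated ones, and within each replicate each later time was higher. At 4 h the levels were 29.7 and 20.6 times the untreated level of the same replicate.

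Nfkbia passed the test in the ER fraction from 1 h on, a test that fitted limma to log2(RPKM + 1) over all genes and adjusted p by the Benjamini-Hochberg method. The log2 change was 3.19 ± 0.70 (SE, n = 2 against 2, limma adjusted p = 0.0122) at 1 h and 3.78 ± 0.70 (limma adjusted p = 0.0027) at 2 h. It was 4.55 ± 0.70 (limma adjusted p = 0.000598) at 4 h, and 3.84 ± 0.57 (limma adjusted p = 0.000255) for the mean of 1, 2 and 4 h. It was the 1 called gene of 6 testable at 1 h, where 5.37% of all genes tested were called higher and 5.23% lower, and of 6 at 2 h, where 11.7% and 5.75% were. It was also the 1 of 5 testable over the mean of 1, 2 and 4 h, where 18.6% of all genes were called higher and 11.8% lower, together 30.4%. At 0.5 h, with 1 ER library, 0 of 5 passed (0.266% of all genes called higher and 0.225% lower, 0 of 5 at an unadjusted p under 0.05). There the log2 change of Nfkbia was 1.56 ± 0.85 (limma adjusted p = 0.388), and with replicate as a block it was 2.29 ± 0.46 (limma adjusted p = 0.0188). Without untreated ER replicate 1 the change at 1 h was 2.40 (limma adjusted p = 0.124), and without 1 h replicate 2 it was 2.26 (limma adjusted p = 0.162). The call at 4 h held under all 13 alternatives tried, among them leaving out each library in turn.

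In the cytosol Nfkbia had 26.5, 49.96, 66.4, 198 and 126 RPKM in replicate 1 and 79.5, 210, 493, 703 and 608 RPKM in replicate 2, from untreated to 4 h. Both replicates peaked at 2 h, and both were higher at 4 h than untreated, by 4.76 and 7.64 times. The groups overlapped through replicate 1, whose values at 0.5 and 1 h lay under the untreated value of replicate 2. The log2 change at 4 h was 2.56 ± 1.09 (limma adjusted p = 0.162) and did not pass.

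Among all genes listed in a library, Nfkbia moved from rank 4298 of 12451 in untreated ER replicate 1 to rank 257 of 3823 at 4 h. In replicate 2 it moved from rank 1896 of 7885 to rank 123 of 5372. Fewer genes were listed in the shallower libraries, so the ranks are not on one scale.

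Tnfaip3 encodes A20, an enzyme that edits ubiquitin chains and shuts off signalling to the IkB kinase. Its ER footprints were 1.62 and 2.45 RPKM untreated and 12.5 and 53.8 RPKM at 4 h, and in replicate 2 they were 19.6 RPKM at 1 h and 42.4 RPKM at 2 h. Both 4 h libraries were above both untreated ones. The log2 change at 4 h was 3.17 ± 0.61 (SE, n = 2 against 2, limma adjusted p = 0.00346). The values rest on few reads: 79 and 5 reads untreated and 4 and 35 reads at 4 h, and with blanks read as 0 the adjusted p was 0.449. In the cytosol replicate 1 had 4.97, 1.42, 3.51, 3.56 and 20.5 RPKM from untreated to 4 h, and replicate 2 had 4.30, 8.17, 14.4, 46.4 and 43.7 RPKM. Replicate 1 lay under its untreated level until 2 h. At 4 h the groups did not overlap, but the log2 change of 2.46 ± 1.04 did not pass (limma adjusted p = 0.16).

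Nfkbiz encodes IkBzeta, a nuclear IkB protein that sits with NF-kB on a subset of targets such as Il6. It took no steady direction in replicate 2, where ER levels were 18.7 RPKM untreated and 16.7, 33.3 and 18.9 RPKM at 1, 2 and 4 h. Cytosol levels of replicate 2 were 32.96, 21.6, 18.6, 31.95 and 23.5 RPKM from untreated to 4 h. In replicate 1 the ER levels were 2.18 RPKM untreated, 10.1 RPKM at 1 h and 19.2 RPKM at 4 h, the last from 5 reads. The log2 change in the ER at 4 h was 1.34 ± 0.68 (limma adjusted p = 0.165), and without untreated ER replicate 2 it was 2.66 (limma adjusted p = 0.0201).

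Ccl7 and Ccl2 encode monocyte chemoattractants, close relatives that both act on the receptor CCR2. Ccl7 ER footprints were 1.47 and 70.1 RPKM untreated, 78.1 and 264 RPKM at 2 h and 223 and 769 RPKM at 4 h. Replicate 2 also had 240 RPKM at 1 h. Both 4 h libraries were above both untreated ones, and the ratios to the untreated level of the same replicate were 151 and 10.96. The listed ER values of replicate 1 rested on only 4 to 9 reads, and those of replicate 2 on 18 to 63. The log2 change at 4 h was 4.97 ± 1.16 (SE, n = 2 against 2, limma adjusted p = 0.00818). The untreated pair lay far apart: without untreated replicate 1 the log2 change was 2.54 (limma adjusted p = 0.0627), and without 4 h replicate 2 it was 4.08 (limma adjusted p = 0.063). With limma's robust option the adjusted p was 0.156, and with blanks read as 0 it was 0.33.

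Ccl2 ER footprints were 13.9 RPKM in untreated replicate 1, then 46.2, 34.9, 257 and 292 RPKM from 0.5 to 4 h. Replicate 2 had 967 RPKM untreated and 480, 1056 and 1467 RPKM at 1, 2 and 4 h. The untreated value of replicate 2 was higher than every value of replicate 1, so the groups overlapped. The log2 change at 4 h was 2.45 ± 1.53 (limma adjusted p = 0.255) and did not pass, though both replicates ended higher, by 20.97 and 1.52 times. Without untreated replicate 1 it was -0.56 (limma adjusted p = 0.816), and without untreated replicate 2 it was 5.46 (limma adjusted p = 0.0117). In replicate 2 Ccl2 was already among the highest genes before treatment, at rank 40 of 7885, while in replicate 1 it held rank 3583 of 12451.

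In the cytosol the 2 replicates of Ccl2 and Ccl7 went opposite ways from untreated to 0.5 h. Ccl2 had 130, 9.28, 28.1, 89.1 and 97.9 RPKM in replicate 1 and 15.9, 310, 401, 972 and 1223 RPKM in replicate 2, from untreated to 4 h. Ccl7 had 78.9, 7.06, 24.2, 79.1 and 81.3 RPKM in replicate 1 and 8.54, 120, 379, 428 and 798 RPKM in replicate 2. From 0.5 h on, both genes were higher at 4 h than at 0.5 h in both replicates. Neither passed at any time against untreated, and at 4 h the log2 changes were 2.89 ± 1.84 for Ccl2 (limma adjusted p = 0.342) and 3.22 ± 1.64 for Ccl7 (limma adjusted p = 0.234).

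Cxcl1 encodes a neutrophil chemokine, and nearly all that is known of it here comes from replicate 2. Its ER footprints there were 142 RPKM untreated and 327, 898 and 653 RPKM at 1, 2 and 4 h. Its cytosol footprints were 9.32 RPKM untreated and 112, 291, 444 and 718 RPKM from 0.5 to 4 h. Replicate 1 listed it in 4 of 10 libraries, at 6.93 RPKM in untreated ER and at 53.1, 7.13 and 9.39 RPKM in cytosol untreated, at 0.5 and at 1 h. Each of these 4 values rested on 5 to 42 reads. The gene could be tested only in cytosol at 0.5 and 1 h and between fractions in untreated cells, and passed in none of these.

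Cxcl12 encodes the homeostatic chemokine SDF-1, which fibroblasts secrete without stimulation, and its ER level was lower, not higher, after treatment. Its levels in replicate 1 were 1219 RPKM untreated, then 1038, 1093, 659 and 512 RPKM from 0.5 to 4 h. Replicate 2 had 734 RPKM untreated and 587, 335 and 292 RPKM at 1, 2 and 4 h. Both replicates ended at 0.42 and 0.398 of their untreated level, and both 4 h values lay under both untreated ones. The log2 change at 4 h was -1.29 ± 0.49 (limma adjusted p = 0.0642) without a block and -1.29 ± 0.31 (limma adjusted p = 0.00515) with replicate as a block. With the libraries centred on their medians it was -1.52 (limma adjusted p = 0.024). In untreated ER, Cxcl12 ranked 31 of 12451 and 64 of 7885 genes.

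In the cytosol Cxcl12 was lowest before treatment: 208, 1435, 873, 972 and 443 RPKM in replicate 1 and 25.3, 565, 638, 449 and 359 RPKM in replicate 2. Every treated library was above both untreated ones. It passed at 0.5 h (log2 change 3.61 ± 0.84, limma adjusted p = 0.0422) and 2 h (3.16 ± 0.84, limma adjusted p = 0.0401), but not at 1 h (3.33 ± 0.84, limma adjusted p = 0.0809) or 4 h (2.43 ± 0.84, limma adjusted p = 0.0979). Without untreated cytosol replicate 2, the change over the mean of 1, 2 and 4 h went from 2.97 ± 0.69 (limma adjusted p = 0.0158) to 1.48 (limma adjusted p = 0.204).

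Csf1 encodes macrophage colony-stimulating factor, made as a membrane-bound or secreted protein by fibroblasts, and it rose in both fractions. Its ER footprints in replicate 1 were 114, 127, 124, 190 and 245 RPKM from untreated to 4 h. Those of replicate 2 were 126 RPKM untreated and 157, 462 and 649 RPKM at 1, 2 and 4 h. The untreated pair lay close together, and both libraries at 2 h and both at 4 h were above it. The log2 change at 4 h was 1.72 ± 0.54 (SE, n = 2 against 2, limma adjusted p = 0.0298). The call was lost with median centring (1.49, limma adjusted p = 0.0549), with blanks read as 0 (limma adjusted p = 0.137), and without either untreated library or 4 h replicate 2 (limma adjusted p from 0.102 to 0.221).

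Csf1 in cytosol had 17.4, 71.4, 51.3, 105 and 95.8 RPKM in replicate 1 and 2.72, 252, 73.3, 202 and 287 RPKM in replicate 2. Every treated library was above both untreated ones. The log2 change was 4.03 ± 0.84 at 0.5 h (limma adjusted p = 0.0287), 4.15 ± 0.84 at 2 h (limma adjusted p = 0.0151) and 4.34 ± 0.84 at 4 h (limma adjusted p = 0.0143). At 1 h it was 2.91 ± 0.84 (limma adjusted p = 0.126). The ratios of 4 h to untreated in replicates 1 and 2 were 5.50 and 106, and without untreated replicate 2 the log2 change at 4 h was 3.18 (limma adjusted p = 0.101).

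Il6, the gene of interleukin 6, was seen almost only in replicate 2. There its ER footprints were 44.9 RPKM untreated and 77.4, 60.8 and 39.4 RPKM at 1, 2 and 4 h. Its cytosol footprints were 7.88 RPKM untreated, 158 RPKM at 0.5 h, 183 RPKM at 1 h, 75.0 RPKM at 2 h and 51.1 RPKM at 4 h. Its cytosol level was past its highest value by 2 h, as were those of Cxcl12 and Ptgs2 in the same libraries, while those of Nfkbia and Ccl2 were not. Replicate 1 listed it in 2 of 10 libraries, at 0.301 RPKM in untreated ER and 3.91 RPKM in cytosol at 0.5 h, from 4 and 6 reads. No comparison of Il6 could be tested.

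Ptgs2 encodes cyclooxygenase 2, the inducible enzyme of prostaglandin synthesis, which sits on the lumenal face of the ER membrane. Its ER footprints were 90.8, 148, 164, 218 and 192 RPKM in replicate 1 from untreated to 4 h, and 345 RPKM untreated and 348, 405 and 489 RPKM at 1, 2 and 4 h in replicate 2. The groups overlapped, and the log2 change at 4 h of 0.79 ± 0.65 did not pass (limma adjusted p = 0.392). Without untreated ER replicate 1 it was -0.17 (limma adjusted p = 0.904).

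Ptgs2 in cytosol had 48.8, 137, 109, 173 and 140 RPKM in replicate 1 and 4.47, 676, 372, 409 and 234 RPKM in replicate 2, with every treated library above both untreated ones. The log2 change was 4.02 ± 1.03 at 2 h (limma adjusted p = 0.0373) and 3.70 ± 0.84 over the mean of 1, 2 and 4 h (limma adjusted p = 0.0153). At 0.5 h it was 4.21 ± 1.03 (limma adjusted p = 0.0512) and at 4 h 3.46 ± 1.03 (limma adjusted p = 0.0649). Without untreated cytosol replicate 2 the mean change was 2.11 (limma adjusted p = 0.191).

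Counted together at 4 h in the ER fraction, 4 of the 8 genes that could be tested were called higher (Nfkbia, Tnfaip3, Ccl7 and Csf1) and 0 lower. Among all 3162 genes tested there, 21.5% were called higher and 6.07% lower, or 681 and 192 genes. With median centring the split was 515 and 282, and the log2 change of every gene moved by -0.23, to a median over all genes of 0.20 in place of 0.44. The median log2 change of the 8 was 2.09, against 0.44 for all genes. These counts cover only genes listed in every library compared. ER replicate 1 held 9604852 reads untreated and 56857 at 4 h, so a low gene could be listed untreated and blank at 4 h. Such a gene entered the test only where its 4 h level was high enough to be listed. With blanks read as 0, 189 of all genes were called higher and 645 lower. Of the 4 called genes, only Nfkbia stayed called there. Same-numbered ER libraries deviated together, and with replicate as a block 6 of 8 were called, adding Ccl2 (limma adjusted p = 0.0115) higher and Cxcl12 lower, where 27.4% of all genes were called higher and 8.98% lower. At 2 h the block raised the calls from 1 of 6 to 5 of 6, with 16.9% of all genes called higher and 10.4% lower. It added Ccl7 (3.45, limma adjusted p = 0.0012), Ccl2 (2.12, limma adjusted p = 0.0311) and Csf1 (1.30, limma adjusted p = 0.0268) higher and Cxcl12 (-1.01, limma adjusted p = 0.0264) lower. Over the mean of 1, 2 and 4 h it raised them from 1 of 5 to 4 of 5, where 24.2% of all genes were called higher and 16.8% lower. At 0.5 h it gave 1 of 5, Nfkbia, where 1.29% were called higher and 2.05% lower.

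In the cytosol 2 of 8 genes were called higher at 0.5 h (Csf1 and Cxcl12), where 3.41% of all genes were. At 1 h 0 of 8 passed with limma, 3 of 8 had an unadjusted p under 0.05, and 1.4% of all genes were called higher and 0.0321% lower. At 2 h 3 of 7 were called higher (Csf1, Cxcl12 and Ptgs2), against 5.37% of all genes higher and 9.45% in either direction. At 4 h 1 of 7, Csf1, was called higher, against 4.58% of all genes higher and 7.91% in either direction. Over the mean of 1, 2 and 4 h 3 of 7 were called higher, against 9.43% of all genes higher and 7.15% lower. None was called lower at any of these times. Untreated cytosol replicate 2 carried these calls: without it, each of the 12 calls of these genes that use untreated cytosol was lost. At 2 h the 3 calls were also lost without either treated library (limma adjusted p from 0.0644 to 0.214). At 0.5 h both were lost without treated replicate 2, and Cxcl12 also without treated replicate 1. Both calls at 0.5 h were also lost with median centring and without the weight per fraction. At 4 h Csf1 was lost without treated replicate 2 (3.55, limma adjusted p = 0.132).

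**Figure D4:**
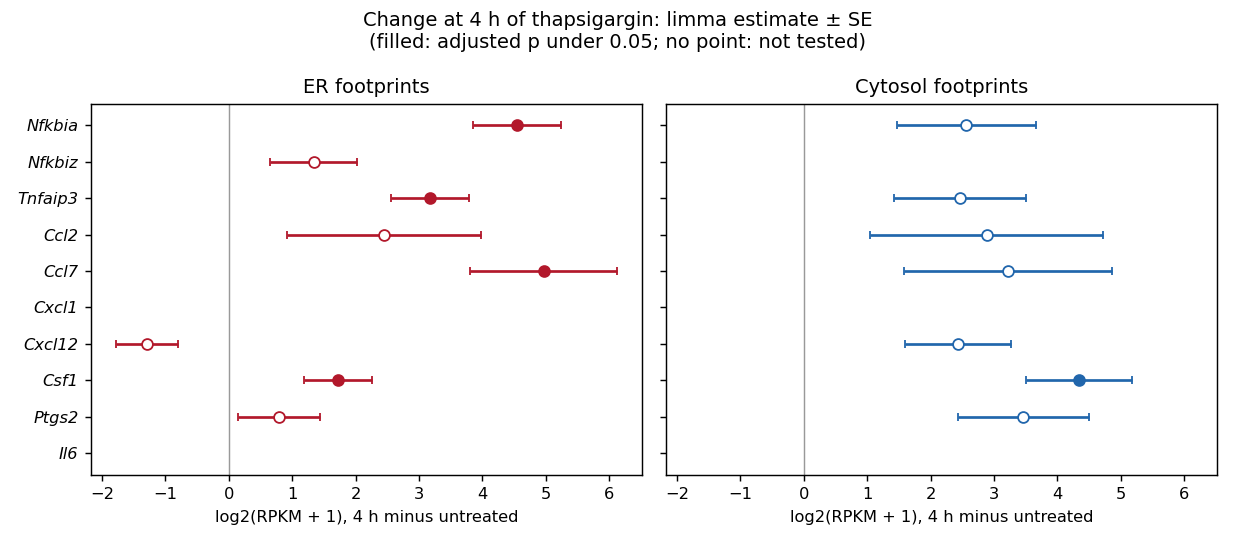
Log2 change of footprints at 4 h against untreated (with standard errors from limma) for each testable gene in the ER and cytosol fractions. In the ER fraction Nfkbia, Ccl7, Tnfaip3 and Csf1 passed, and in the cytosol only Csf1 did.

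The rise of Cxcl12, Csf1 and Ptgs2 in cytosol was shared with other genes that the deposited table marks TRUE, a mark carried by 8434 of 22417 genes. It is set for the 7 secreted or ER-resident genes here and not for Nfkbia, Nfkbiz and Tnfaip3, and the table does not say what it means. Of the marked genes tested in cytosol, 130 of 697 were called higher at 0.5 h and 111 of 623 at 2 h. At 4 h 77 of 569 were, and over the mean of 1, 2 and 4 h 188 of 516. These shares are larger than those of all genes. Cytosol footprints at 0.5 h had a median log2 change of 1.90 over the 697 marked genes tested, and at 4 h of 1.40 over 569, against -0.25 for unmarked genes at 4 h. The replicates differed in this: against the untreated library of the same number, the median marked gene changed by 0.37 and 3.27 at 0.5 h and by 0.81 and 1.81 at 4 h in replicates 1 and 2. Marked genes held 5.96 and 4.55% of the summed RPKM in untreated cytosol, 10.2 and 18.7% at 0.5 h and 8.64 and 9.66% at 4 h. In the ER fraction their share went from 29.7 and 33% untreated to 11.9 and 13.9% at 4 h, and their median log2 change at 4 h was -0.56. Of the marked genes here, Cxcl12 stood at -1.29 in that comparison, Ptgs2 at 0.79, Csf1 at 1.72, Ccl2 at 2.45 and Ccl7 at 4.97. The part of this general movement in the changes of single genes was not tested.

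The ER share of a gene is its ER RPKM over the sum of its ER and cytosol RPKM in samples of the same number. In untreated cells Cxcl12 had 85.4 and 96.7% of its footprints in the ER fraction, Csf1 86.8 and 97.9%, and Ptgs2 65.0 and 98.7%. The median marked gene had 75.9 and 95.4% and the median unmarked gene 34.01 and 35.4%. Ccl2 and Ccl7 did not follow one pattern: Ccl2 had 9.72% in replicate 1 and 98.4% in replicate 2, and Ccl7 1.83 and 89.1%. Cxcl1 had 11.5 and 93.8%. These shares set untreated ER and cytosol libraries of the same number beside each other, and whether the numbers pair them is unsure: for these 3 genes ER replicate 1 and cytosol replicate 2 were the low libraries and the others the high ones.

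By 4 h the ER share was 53.6 and 44.9% for Cxcl12, 71.9 and 69.3% for Csf1 and 57.8 and 67.6% for Ptgs2, each lower than untreated in both replicates. The median marked gene stood at 60.0 and 65.6%. Nfkbia, whose protein has no ER signal sequence, moved up from 28.5 and 29.9% untreated to 71.4 and 53.4% at 4 h, while the median unmarked gene reached 51.0 and 51.5%. In replicate 1 the shares were already lower at 0.5 h, at 41.98% for Cxcl12, 64.0% for Csf1 and 51.8% for Ptgs2. The differences in share between times were not tested.

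**Figure D5:**
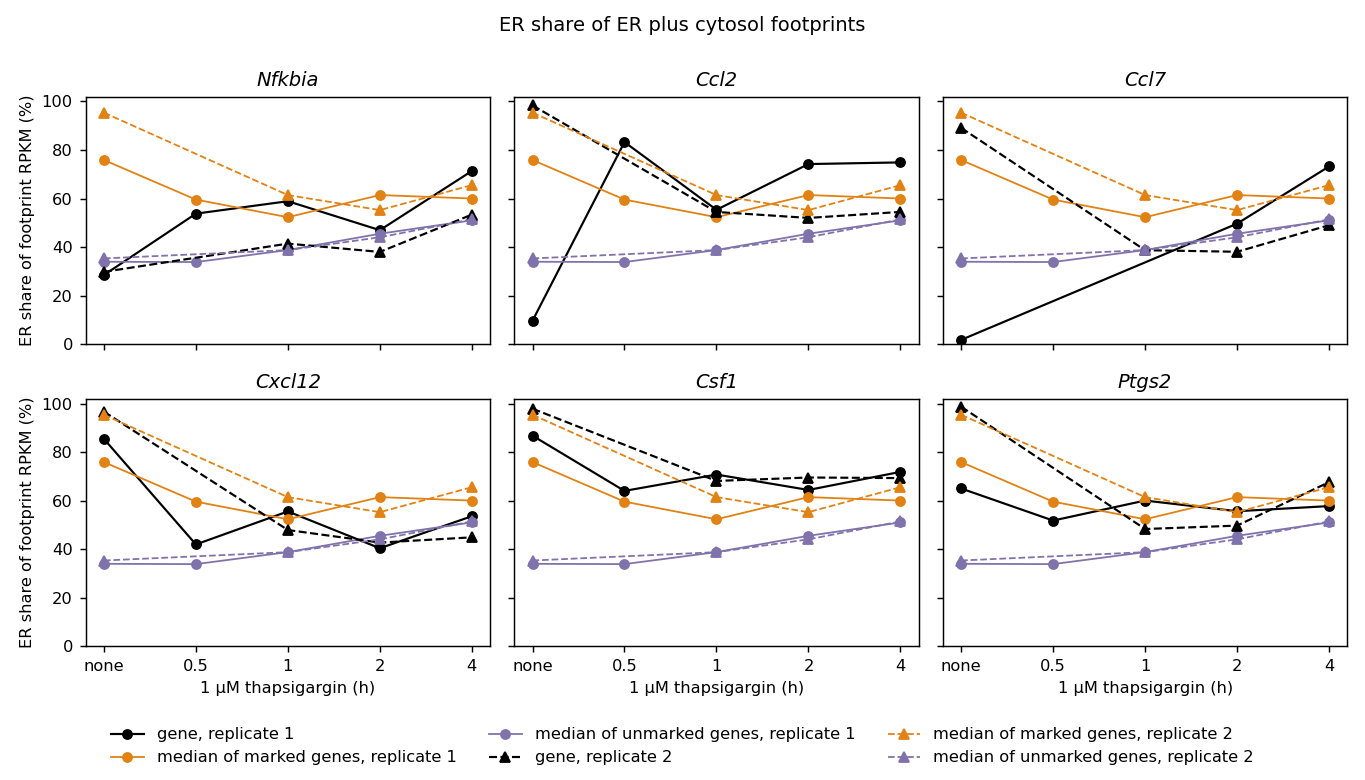
ER share of footprints (percent of ER plus cytosol RPKM) by time for 6 genes in each replicate, beside the medians of marked and unmarked genes. Cxcl12 goes from 85.4 and 96.7% untreated to 53.6 and 44.9% at 4 h, and Nfkbia from 28.5 and 29.9% to 71.4 and 53.4%.

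Tested directly, ER footprints of untreated cells exceeded cytosol footprints for Csf1 (log2 difference 3.87 ± 0.78, limma adjusted p = 0.00413), Cxcl12 (3.68 ± 0.77, limma adjusted p = 0.00492) and Ptgs2 (3.43 ± 1.00, limma adjusted p = 0.0314). These were 3 of 8 testable genes, where 7.88% of all genes were called higher in the ER fraction, or 456 higher and 387 lower (480 and 120 with median centring). All 3 carry the TRUE mark, and 432 of the 735 marked genes tested were called higher too, so these calls were not particular to the 3. Without untreated cytosol replicate 2 the differences were 2.72, 2.18 and 1.84, with limma adjusted p of 0.072, 0.0781 and 0.247. Without untreated ER replicate 2 the differences were 3.80 for Csf1 (limma adjusted p = 0.0501) and 2.48 for Ptgs2 (limma adjusted p = 0.307). At 1, 2 and 4 h limma called 0 of 6, 0 of 6 and 0 of 7 of these genes and 0 genes of the whole table (0% in either direction), although 852, 494 and 257 genes had an unadjusted p under 0.05. The change in the difference between fractions was largest in size for Cxcl12, at -3.57 ± 1.09 at 1 h, -4.17 ± 1.09 at 2 h and -3.72 ± 1.09 at 4 h. None of these passed (limma adjusted p = 0.0855, 0.0562 and 0.0935), nor did any other of the 5, 6 and 7 genes testable, where 2.78, 2.03 and 1.58% of all genes were called lower. With replicate as a block Cxcl12 passed at 1, 2 and 4 h (limma adjusted p = 0.00927, 0.00508 and 0.0092), and with median centring at 2 h (limma adjusted p = 0.0496). Without untreated cytosol replicate 1 its values were -5.07, -5.66 and -5.21 (limma adjusted p = 0.000989, 0.000464 and 0.000823), and without replicate 2 of that group -2.08, -2.67 and -2.23 (limma adjusted p = 0.461, 0.283 and 0.281). The median marked gene had -2.96, -2.78 and -2.82 in the same comparison.

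The mRNA libraries were too shallow to follow most of these genes, with a median of 7 reads behind each of the 87 values. Ptgs2 was listed in 17 of 20 mRNA libraries, Csf1 in 15, Ccl2 in 12, Nfkbia in 10, Ccl7 in 8, Nfkbiz and Cxcl1 in 7, Tnfaip3 in 6, Cxcl12 in 4 and Il6 in 1. Replicate 1 gave 27 of the values and replicate 2 gave 60. Only Csf1 and Ptgs2 could be tested, in the ER fraction at 1 and 2 h. Limma called 0 of 2 there, 0 of 2 at an unadjusted p under 0.05, and 0% of all genes at either time, and the same held for the ratio of footprints to mRNA at these times. Between fractions, 0 of 2 passed at 1 h and at 2 h, where 0.145 and 0.199% of all genes had more mRNA in the ER fraction.

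Cytosol mRNA of replicate 2 held the longest series. Its untreated library was the shallowest of them, with 48215 reads against 110738 to 208406 at the later times. A blank there can therefore stand for a level that a deeper library would list. Nfkbia mRNA was 47.4, 47.1, 58.3, 89.7 and 104 RPKM from untreated to 4 h, and replicate 1 listed it only at 2 and 4 h, at 7.97 and 8.50 RPKM. Cxcl1 mRNA was blank untreated and 27.9, 133, 292 and 236 RPKM from 0.5 to 4 h, while Ccl2 mRNA was blank untreated and 72.4, 49.3, 312 and 180 RPKM. Both were higher at 2 and 4 h than at 0.5 h. In the ER fraction of the same replicate, Ccl2 mRNA was 143 RPKM untreated and 135, 149 and 101.7 RPKM at 1, 2 and 4 h, with no such increase. Other genes were higher there at 1 and 2 h than untreated. Nfkbia went from 7.51 to 157 and 77.5 RPKM, Cxcl1 from 24.4 to 334 and 91.8 RPKM, and Csf1 from 4.27 to 61.3 and 20.1 RPKM. The fewest reads behind a value in each of these series were 1. Cytosol replicate 1 listed Ccl2 mRNA at 18.2 RPKM untreated, 61.99 RPKM at 1 h and 25.2 RPKM at 4 h. Nfkbiz mRNA in cytosol replicate 2 was 23.7, 10.7, 11.7, 24.6 and 6.31 RPKM, with no steady direction. Tnfaip3 mRNA was listed from 1 h on, at 2.36, 16.4 and 14.1 RPKM, the first from 1 read. Ptgs2 mRNA in cytosol was 30.5, 29.3, 25.9 and 18.6 RPKM in replicate 1 and 86.8, 51.6, 58.7 and 6.57 RPKM in replicate 2 from 0.5 to 4 h, with 10.1 RPKM in untreated replicate 1. After 0.5 h its cytosol mRNA was lowest at 4 h in both replicates, and the listed values of replicate 2 rested on 4 to 39 reads. ER mRNA of Ptgs2 in replicate 1 was 59.5, 47.9, 22.7, 19.3 and 56.3 RPKM from untreated to 4 h, lowest at 2 h.

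The wider NF-kB system was read from 9 lists with 161 entries, of which 158 are in the table and 2 genes stand in 2 lists each. At 4 h 31 entries could be tested in the ER fraction, with 10 called higher and 2 lower, where 21.5% of all genes were called higher and 6.07% lower. Here too, a low gene could be tested in the ER fraction only where its 4 h level was high enough to be listed. In the cytosol 40 could be tested, with 5 higher and 1 lower, where 4.58% and 3.32% of all genes were. Among NF-kB subunits and inhibitors 2 of 3 tested were called higher in the ER fraction and 0 of 3 in the cytosol. Rel, the c-Rel subunit, had 2.95 and 3.23 RPKM untreated and 20.5 and 8.10 RPKM at 4 h (log2 change 1.77 ± 0.49, limma adjusted p = 0.0205). Nfkb2, the p100 precursor of p52, had 7.01 and 14.4 RPKM untreated and 29.5 and 31.8 RPKM at 4 h in the ER fraction (1.51 ± 0.51, limma adjusted p = 0.0411). In the cytosol its level was 15.7 and 26.6 RPKM untreated and 7.35 and 9.80 RPKM at 4 h (-1.18 ± 0.64, limma adjusted p = 0.267). Of the alternatives tried, 4 of 12 ended the ER call of Rel and 7 of 13 that of Nfkb2. The call of Rel was lost without untreated ER replicate 1 (limma adjusted p = 0.18), untreated replicate 2 (0.153) or 4 h replicate 1 (0.138). That of Nfkb2 was lost without any 1 of the 4 libraries (limma adjusted p from 0.074 to 0.35) and with median centring (0.0865).

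Upstream of NF-kB few genes could be tested. Ikbkg, the NEMO scaffold of the IkB kinase, was the 1 gene of its list tested in the ER fraction and was called higher (1.35 ± 0.41, limma adjusted p = 0.0286), while 0 of 7 passed in the cytosol. Of receptors that act through NF-kB, 1 of 3 was called higher in the ER fraction: Tlr2, a receptor for bacterial lipoproteins, went from 1.22 and 8.24 RPKM to 21.5 and 21.3 RPKM (2.31 ± 0.61, limma adjusted p = 0.0164). Tnfrsf12a, the receptor of TWEAK, was the 1 tested in the cytosol and rose from 33.9 and 26.4 RPKM to 419 and 607 RPKM (4.03 ± 0.44, limma adjusted p = 0.00132), a call that held under all 13 alternatives. In the ER fraction its change was 1.19 ± 0.44 and did not pass (limma adjusted p = 0.0602). Its untreated ER footprints exceeded those in cytosol by 2.07 ± 0.43 (limma adjusted p = 0.00485). Tnip1, a partner of A20, was the 1 of 3 other brakes called higher in the ER fraction (2.15 ± 0.46, limma adjusted p = 0.00531), against 0 of 7 in the cytosol. Without untreated ER replicate 1 the limma adjusted p was 0.206 for Ikbkg, 0.234 for Tlr2 and 0.0978 for Tnip1. Leaving out any other of the 4 libraries also ended the call of Ikbkg, and leaving out either 4 h library ended that of Tlr2. Of all alternatives tried, 6 of 13 ended the call of Ikbkg, 4 of 12 that of Tlr2 and 2 of 13 that of Tnip1.

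Other described NF-kB targets gave most of the calls, with 4 of 10 higher and 2 lower in the ER fraction (21.5% and 6.07% of all genes) and 4 of 8 higher and 1 lower in the cytosol (4.58% and 3.32% of all genes). Gadd45b, a stress sensor that is also induced by other pathways, rose from 47.9 and 49.7 RPKM to 2014 and 3264 RPKM in the ER fraction (5.69 ± 0.39, limma adjusted p = 3.42e-06). In the cytosol it rose from 79.9 and 55.7 RPKM to 857 and 1725 RPKM (4.17 ± 0.48, limma adjusted p = 0.00138). Its levels at 4 h were higher than those of any of the 10 genes in the same libraries. Junb, a subunit of AP-1, rose in the ER fraction (2.95 ± 0.48, limma adjusted p = 0.000903) and in the cytosol (2.56 ± 0.53, limma adjusted p = 0.0181). The calls of Gadd45b in both fractions and of Junb in the ER fraction held under all 13 alternatives, while that of Junb in the cytosol was lost without any 1 of the 4 libraries (limma adjusted p from 0.0564 to 0.145).

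Rcan1, an inhibitor of calcineurin that calcium signals induce, rose in the ER fraction (4.06 ± 0.54, limma adjusted p = 0.000228) and in the cytosol (3.32 ± 0.83, limma adjusted p = 0.0343). Irf1, an interferon regulatory factor, rose in the ER fraction from 8.42 and 6.92 RPKM to 36.6 and 199 RPKM (3.33 ± 0.79, limma adjusted p = 0.00796). That call was lost under 2 of 13 alternatives. Ptx3, a secreted pentraxin, was called in the cytosol (4.06 ± 0.97, limma adjusted p = 0.0296), with 57.2 and 6.56 RPKM untreated and 229 and 530 RPKM at 4 h. In the ER fraction its change was 0.44 ± 0.55 (limma adjusted p = 0.579). Its untreated ER footprints exceeded those in cytosol by 4.32 ± 0.90 (limma adjusted p = 0.00479). Of marked genes, 77 of 569 were called higher in cytosol at 4 h, and the part of this general movement in the call of Ptx3 was not tested. Ccnd1 and Plau fall outside the rule for naming and were picked with their values known. Ccnd1, a cyclin of the cell cycle, fell by 1.47 in the ER fraction (limma adjusted p = 0.0259) and fell by 2.17 in the cytosol (limma adjusted p = 0.026) on the log2 scale. Plau, a urokinase, fell by 1.51 in the ER fraction (limma adjusted p = 0.0371). Rcan1 held in the ER fraction under all 13 alternatives. In the cytosol, without untreated replicate 2, the limma adjusted p was 0.199 for Rcan1, 0.185 for Ptx3 and 0.189 for Ccnd1, and each was also lost without either 4 h library. In the ER fraction Irf1 was lost without 4 h replicate 2 (limma adjusted p = 0.0787), Plau without either untreated library or 4 h replicate 1 (0.12 to 0.239), and Ccnd1 without either untreated library or 4 h replicate 2 (0.0854 to 0.189).

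Among other cytokines and chemokines, 28 of 45 in the table were listed in footprints, and only 3 could be tested in the ER fraction and 2 in the cytosol. Gdf15, a stress cytokine, was called higher in the ER fraction (1.60 ± 0.52, limma adjusted p = 0.0361), from 17.1 and 32.6 RPKM to 47.7 and 114 RPKM. That call was lost without either untreated library or 4 h replicate 2 (limma adjusted p from 0.0561 to 0.276) and with median centring (0.07). Tnf, Il1a and Il1b, which activate NF-kB, were listed in 0 footprint libraries. The receptors of these ligands were mostly unlisted: Ccr1, Ccr2, Ccr3 and Cxcr2 in 0 libraries, Csf1r and Il6ra in 1 each and Cxcr4 in 3. Cxcr7, the decoy receptor of Cxcl12, was listed in 18 footprint libraries and Il6st, the shared signalling chain of IL-6 receptors, in 19. Neither passed at 4 h, with log2 changes in the ER fraction of 0.93 ± 0.63 for Cxcr7 and -0.97 ± 0.68 for Il6st.

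Of the prostaglandin enzymes beside Ptgs2, 0 of 3 passed in either fraction at 4 h. Ptgis, prostacyclin synthase, had a log2 change of -0.95 ± 0.54 in the ER fraction and 2.35 ± 0.69 in the cytosol (limma adjusted p = 0.21 and 0.0611). Ptges3, a cochaperone also named as a prostaglandin E synthase, had 0.12 ± 0.59 in the ER fraction, which was -0.12 with median centring. Of factors that control decay of cytokine mRNAs, 0 of 3 passed in the ER fraction and 0 of 8 in the cytosol at 4 h. Among them Elavl1, the stabilising protein HuR, had log2 changes of 0.43 ± 0.54 and -1.28 ± 0.54, and Hnrnpd, the protein AUF1, -0.84 ± 0.44 and -1.66 ± 0.47. Over the mean of 1, 2 and 4 h Hnrnpd did pass, with -1.06 ± 0.36 in the ER fraction (limma adjusted p = 0.038) and -1.98 ± 0.38 in the cytosol (limma adjusted p = 0.00702). Ptgis passed over the same mean in the cytosol (2.79 ± 0.56, limma adjusted p = 0.00877).

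Genes with the most similar footprint profile were read from the 2011 genes listed in all 19 footprint libraries, by Pearson's r of log2(RPKM + 1) over these libraries. These values describe libraries that share fractions, depth and replicate, and carry no test. For Nfkbia the closest were Pml (r = 0.93), Rnd1 (0.92) and Hist1h1a (0.91). For Ccl2 they were Tcirg1 (0.82), Cebpb (0.80) and Gnptab (0.79), and for Cxcl12 Fbln5 (0.96), Cd81 (0.95) and Sdc2 (0.94). For Csf1 they included Inhba (0.94) and Ptx3 (0.91), and for Ptgs2 they were Ptx3 (0.96), Scpep1 (0.96) and Gla (0.94). Among the 5 genes listed in all of these libraries Csf1 and Ptgs2 were closest, with r = 0.89, and Nfkbia and Ccl2 had 0.72. Nfkbia and Cxcl12 had -0.17.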

How the data were processed

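Ribosome footprints and mRNA were measured in the ER and cytosol fractions of GADD34-/- mouse embryonic fibroblasts. The authors deposited RPKM values, 1 column per library, in a table of 22417 genes, and the table's header gives no unit, so RPKM was read from the values. Per the submitters' processing notes, Bowtie was used and the build named is hg19, a human build, although the gene IDs are of mouse; its version is not given in the sources used here. No coordinates of that build are used. Values carried a weight per fraction and time, inferred from the steps, and whole reads came out for all 13206 genes listed in at least 2 libraries (tolerance 2e-05 reads plus a share of 1e-07). RPKM carries the depth of each library into its precision, and read numbers cover counting error only.

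From these values log2(RPKM + 1) was computed, genes whose mean was under 1 RPKM were left out, and limma 3.58.1 (R 4.3.3; trend on, robust off) was fitted within each fraction across all times, or across both fractions. A gene was tested only where every library of the groups compared lists it; p-values are two-sided, Benjamini-Hochberg adjusted over all tested genes, with a threshold of 0.05. A fold on this scale understates changes of low genes. The scripts were tested on simulated data. Tables and plots used Python 3.11.15, numpy 2.4.6, pandas 2.3.3 and matplotlib 3.10.9. The members and lists were chosen with earlier results of these data known. Of each list the text names the genes that passed in either fraction at 4 h, up to 4 per list in each fraction by size of change, and otherwise the 2 of highest mean footprint level; like genes are the 3 with the highest correlation, of which 1 is not reported here. Alternatives were pseudocounts of 0.1 and 5, other filters, median centring, no weight, blanks as 0, limma's robust option, a replicate block and leaving out each library.

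The labels number samples 1 and 2 in every group. Deviations of same-numbered ER footprint libraries correlated at 0.182 to 0.379 over all 6 pairs of times, so these were read as paired. Cytosol footprints gave -0.192 to 0.625 and were not. That pairing comes from the data, not from the labels. The main tests left it out in both fractions, and the replicate block was run only as an alternative. No sample was averaged with another.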

Additional observations from a re-analysis of the deposited data

Results flagged for a closer look

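Cxcl12 is the one gene of the 10 in which every ER library moved one way and every cytosol library the other at 1, 2 and 4 h against the untreated library of the same number. The change in the ER minus that in the cytosol was -3.57 at 1 h, -4.17 at 2 h and -3.72 at 4 h on the log2 scale. The interaction was tested with limma and did not pass at any of these times (adjusted p = 0.0855, 0.0562 and 0.0935, all genes tested). It passed at each time with replicate as a block (adjusted p = 0.00927, 0.00508 and 0.0092), although cytosol footprints did not pair by number, and at 2 h with median centring (adjusted p = 0.0496). The median gene with the TRUE mark had -2.96, -2.78 and -2.82 in the same comparison, and the marked medians were negative in the ER and positive in the cytosol in both replicates, so this direction was not particular to Cxcl12. The untreated cytosol level behind it was 208 and 25.3 RPKM.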

How the results depend on the processing

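Calls of the 10 genes kept direction and side of the threshold in 137 tests under other settings and lost significance in 19; with a library left out they kept it in 61 and lost it in 31. The cause was not tested. With blanks read as 0, which adds low genes to the test, called genes numbered 0 in cytosol at 0.5 and 2 h, 1 over the cytosol mean, 0 in the ER at 1 and 2 h and 1 at 4 h. In cytosol at 0.5 h a mean of at least 10 RPKM left 1, and median centring or no weight per fraction left 0. Median centring gave 2 in the ER at 2 h and 1 for the shift at 2 h. The replicate block gave 1, 5, 6 and 4 in the ER at 0.5 h, 2 h, 4 h and over the mean, 2 and 4 in cytosol at 1 and 4 h, and 1, 1 and 2 for the shift at 1, 2 and 4 h; in cytosol the numbers share only a label. For the shift these were Cxcl12 each time and, at 4 h, Nfkbia.

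Over all genes, ER calls at 4 h with blanks as 0 were 189 higher and 645 lower. Cytosol calls at 4 h were 352 higher and 427 lower with the block and 59 lower with blanks as 0. Untreated ER below cytosol gave 120 with centring and 1131 with the block. Leaving out 1 library, these counts ran from 242 to 708 higher and 58 to 108 lower in the ER, 22 to 465 and 0 to 64 in cytosol, and 157 to 872 and 3 to 189 between fractions.

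Leaving out 1 library, called genes ran from 0 to 3 in cytosol at each time, 0 to 4 over its mean, 0 to 3 between untreated fractions, 0 to 1, 1 to 3, 2 to 5 and 1 to 2 in the ER at 1, 2 and 4 h and over the mean, and 0 to 3 for the shift at each time. Direction was not stable for 8 log2 changes with no call: between untreated fractions Ccl2 ran from -1.65 to 4.36, Ccl7 from -3.48 to 1.36 and Cxcl1 from -1.58 to 2.59; in the ER at 4 h Ccl2 from -0.56 to 5.46, Ptgs2 from -0.17 to 1.74, Ptx3 from -0.027 to 0.90 and Ptges3 from -0.23 to 0.46; and in cytosol at 4 h Il6st from -0.71 to 3.36. Ptges3 was also -0.12 with median centring. Depth limits single values: 21 footprint and 50 mRNA values rested on under 10 reads.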
